A study of Caenorhabditis elegans with 2 samples.

Results

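The binding positions described here are those that the Grainyhead transcription factor GRH-1 of the nematode Caenorhabditis elegans occupied, by ChIP-seq (sequencing of immunoprecipitated chromatin), in the promoters of several genes at once. They are the 387 of 2470 peaks in the pooled list whose summit, the point given as each peak's source of signal, lay in the promoter windows of 2 or more protein-coding genes. The window of a gene reached 1000 bp upstream and 200 bp downstream from each annotated 5′ end of its protein-coding transcripts in the Ensembl annotation (release 115) of the assembly WBcel235, the same assembly as the build ce11 of the deposited files. The choice used positions only, not signal. Of the other peaks, 950 had their summit in the window of a single gene and 1133 had it in no window. The chromatin came from 1 group of animals with 2 biological replicates, whole L1 larvae aged 6 h that had been bleached out of their mothers and starved. All animals were of strain RW12208, which carries TY1, EGFP and 3xFLAG sequences inserted by CRISPR at the endogenous grh-1 gene on chromosome I. Chromatin was sheared by sonication and precipitated with an antibody against GFP according to the description in the labels, while their antibody field reads grh-1. No control library or untagged strain was analysed here, the number of reads behind the peaks is unknown, and whole animals give a signal averaged over all tissues.

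Grainyhead proteins are known across animals for activating genes of the epidermis and other epithelia, and they bind a palindrome with the core ACCGGT. In the compact genome of C. elegans, neighbouring genes on opposite strands often start close together and point away from each other, so that their promoters share the sequence between them. Such a pair is called divergent below. Genes on the same strand can also follow each other closely, and some of these are transcribed together as operons. Many worm transcripts are trans-spliced, which removes the original start of the RNA, so an annotated 5′ end can lie downstream of the place where transcription begins.

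The sequences at which the findings can be seen are given first, from the plus strand of the NCBI RefSeq copy of this assembly. The first 3 lines are all the members that held the palindrome AACCGGTT within 100 bp of the summit. The next line is a member with AACCAGTT, the complement of the variant AACTGGTT. The others are members with high signal values for the remaining sequences, except AAAATAAA and GCGCCAGC. They are not always the highest, since higher members with AACTGGTT, CACGTG and GCGAGACC have no sequence printed here. Capitals mark the match to the named sequence or to its reverse complement, and each line covers 61 bases around it.
ifbp-1 / cpz-2, AACCGGTT, chrV:13380374-13380434: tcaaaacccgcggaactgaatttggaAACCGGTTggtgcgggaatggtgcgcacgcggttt
K01A2.9 / far-7, AACCGGTT, chrII:319623-319683: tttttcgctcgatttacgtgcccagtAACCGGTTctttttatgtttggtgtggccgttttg
C47E8.11 / gasr-8, AACCGGTT, chrV:14688681-14688741: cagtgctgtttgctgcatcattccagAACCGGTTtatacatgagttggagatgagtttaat
F57A8.1 / T06E8.8, AACTGGTT, chrV:10043292-10043352: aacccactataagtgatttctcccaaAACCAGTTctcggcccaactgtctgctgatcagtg
F32D8.13 / sec-61.G, AGACGCAG, chrV:10897328-10897388: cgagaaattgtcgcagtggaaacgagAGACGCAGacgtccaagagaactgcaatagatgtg
K01G5.10 / tasp-1, GAGAGA, chrIII:10759269-10759329: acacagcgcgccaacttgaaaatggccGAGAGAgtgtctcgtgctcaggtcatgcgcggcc
T26A8.4 / pdtf-1, CACGTG, chrIV:8432980-8433040: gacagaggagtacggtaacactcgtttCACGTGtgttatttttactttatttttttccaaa
rpl-20 / Y17G9B.5, GATTTACG, chrIV:4750076-4750136: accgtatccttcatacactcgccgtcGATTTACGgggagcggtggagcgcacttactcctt
gmps-1 / cap-2, GCGAGACC, chrII:10868910-10868970: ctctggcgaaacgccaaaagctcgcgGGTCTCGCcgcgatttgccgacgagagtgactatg
ddp-1 / ttc-7, TGCGCCAG, chrIII:1859715-1859775: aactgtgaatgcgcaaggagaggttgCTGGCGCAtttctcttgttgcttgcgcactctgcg
C47E8.4 / hsp-90, GCGCGTTT, chrV:14685716-14685776: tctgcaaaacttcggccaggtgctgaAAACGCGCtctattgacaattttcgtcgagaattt

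Most shared positions lay between divergent genes. Of the 387 members, 333 (86.0%, 82.2 to 89.1) were in the windows of a divergent pair, 28 (7.24%, 5.05 to 10.3) in those of a pair on the same strand, and 1 in those of a pair on opposite strands whose 5′ ends overlap, which was counted apart from the divergent pairs. The remaining 25 members lay in the windows of more than a pair, 24 of them with 3 genes and 1 with 4. The brackets are 95% Wilson intervals, which cover counting error over summits only, and neighbouring summits are not independent. Among the 362 members with exactly 2 genes, 92.0% (88.7 to 94.4) were divergent, where divergent pairs made up 85.9% of the bases that lie in the windows of exactly 2 genes. The members named 779 different genes, and 9 of the 378 gene sets held more than 1 summit. By position, 330 members (85.3%) lay between protein-coding genes, 25 in introns, 18 in untranslated exon sequence and 14 in coding exons. Single-gene promoter summits lay between protein-coding genes less often, in 647 of 950 (68.1%).

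Summits were denser where promoters overlap than where they do not. Windows of several genes covered 2.70 Mb, which is 10.3% of all promoter-window bases, yet they held 28.9% (26.6 to 31.4) of the 1337 promoter summits. This was 143 summits per Mb, against 40.4 per Mb in windows of a single gene. Because shared windows are closer to 5′ ends, the densities were also set out by the distance to the nearest 5′ end. Since windows reach 200 bp downstream, the ranges up to 200 bp also take in bases downstream of the 5′ end. Single-gene windows had 4.26 Mb within 100 bp, 4.04 Mb in the next 100 bp and 1.94 Mb above 200 and up to 300 bp. Of the single-gene summits, 863 of 950 (90.8%) lay upstream of their gene. Densities over upstream bases alone were not computed for these near ranges. Within 100 bp of the nearest 5′ end the shared windows held 145 summits per Mb (exact 95% Poisson interval 122 to 172) and the single-gene windows 42.9 (36.9 to 49.6). The largest densities of both were above 200 and up to 300 bp, with 213 (163 to 275) and 78.5 (66.5 to 92.0). Bases downstream of the nearest 5′ end enter only the ranges up to 200 bp, so this maximum cannot be read as a preferred distance. Upstream bases can also lie inside genes. At T26A8.4 / pdtf-1, a summit 703 bp from the nearer 5′ end lay in an intron. The share of such bases in each range is not given here. Above 300 and up to 500 bp they were 90.4 (62.6 to 126) and 42.9 (36.6 to 49.95), and the intervals were apart at every distance up to there. Above 500 bp they overlapped, at 46.3 (26.4 to 75.1) and 25.2 (22.1 to 28.6). By class, windows of 3 or more genes held 225 summits per Mb, divergent windows 150 and same-strand windows 78.9.

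**Figure D1:**
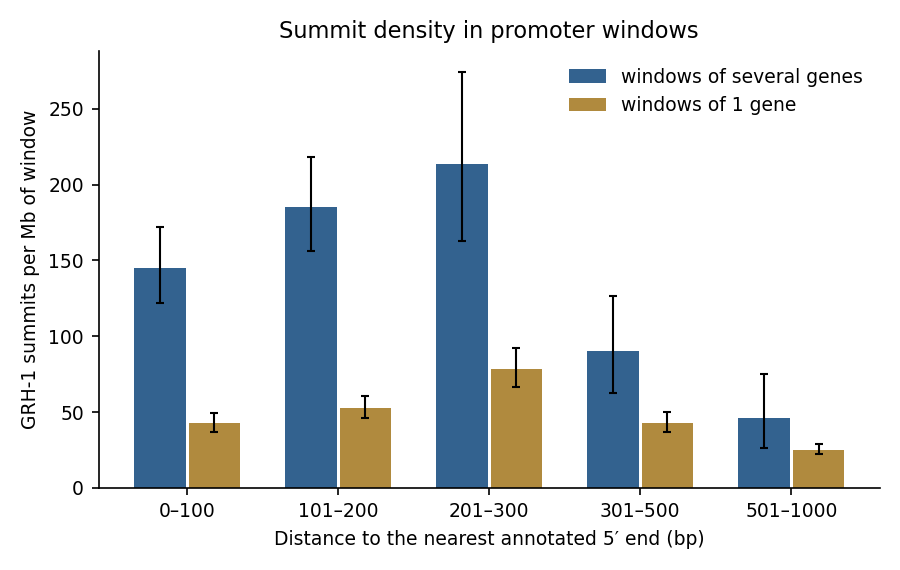
GRH-1 summits per Mb of promoter window, by distance to the nearest annotated 5′ end, for windows of several genes and of 1 gene. Bars are densities with exact 95% Poisson intervals over summits. The density in shared windows was the higher one in all 5 distance ranges, and the intervals were apart in the 4 nearest. The ranges up to 200 bp also count bases downstream of the 5′ end, since windows reach 200 bp downstream.

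Seen from the genome, only a minority of divergent promoters was bound at this threshold. There were 2556 neighbouring divergent pairs whose outermost 5′ ends lay within 2000 bp of each other, and 380 of them (14.9%, 13.5 to 16.3) held a summit between those ends. The share was lowest for ends within 200 bp, at 21 of 248 pairs (8.47%, 5.60 to 12.6). It was highest for ends more than 200 and up to 400 bp apart, at 101 of 472 pairs (21.4%, 17.9 to 25.3), and these intervals did not overlap. It was 18.0% for the next 200 bp and between 10.8% and 14.8% in the wider ranges, although wider pairs have more bases in which a summit could lie. Per base between the ends the order differed, with 638 summits per Mb within 200 bp, 722 in the next 200 bp and 90.0 to 362 in the wider ranges.

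**Figure D2:**
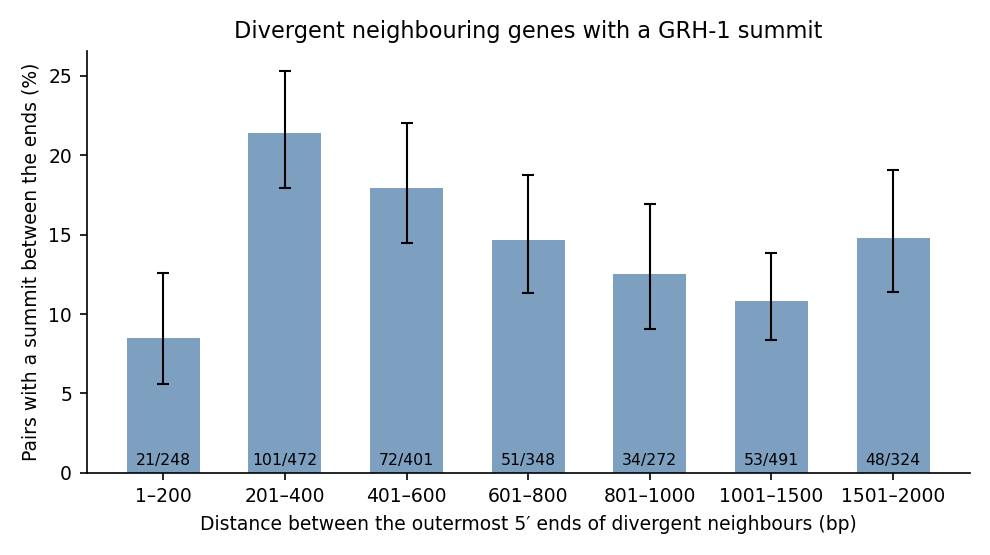
Share of neighbouring divergent gene pairs with a GRH-1 summit between their outermost 5′ ends, by the distance between those ends. Bars carry 95% Wilson intervals and the numbers of pairs with a summit and in all are printed at their feet. The share rose from 8.47% within 200 bp to 21.4% above 200 and up to 400 bp and was lowest among the wider ranges at 10.8%, above 1000 and up to 1500 bp.

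Within the divergent members, the 5′ ends lay a median of 508 bp apart, with a range of 12 to 1659 bp, and the summit usually lay between them. This held for 314 of the 333 summits (94.3%, 91.3 to 96.3). The median distance from the midpoint was 89.5 bp, and 143 of the 314 (45.5%, 40.1 to 51.1) lay in the middle of 3 equal parts of the interval. The window rule, 1000 bp upstream and 200 bp downstream, itself limits where a member's summit can lie. For ends more than 1000 bp apart it leaves out positions next to either end. The share of admissible bases between the ends is not given here, so no preferred position can be read from these shares. The nearer 5′ end was a median of 143 bp away and the farther one 350 bp. The summit was nearer to the forward-strand gene in 181 of 333 pairs (54.4%, 49.0 to 59.6), so neither strand was favoured beyond counting error. Distances to the ends differed by under 50 bp in 58 pairs (17.4%), and for those summits the nearest gene is little more than a label. At 137 members (41.1%, 36.0 to 46.5) the summit was within 300 bp of both ends. The closest ends were those of F32D8.14 / F32D8.5, 12 bp apart, with a pooled signal value of 81.3 and a value of 53.0 in replicate 1. In the ranked list of replicate 2 no summit lay within 100 bp of it. The farthest were those of mif-4 / ipla-6, 1659 bp apart, with a pooled value of 399.7 and values of 225 and 174 in replicates 1 and 2, so summits were found at both extremes.

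**Figure D3:**
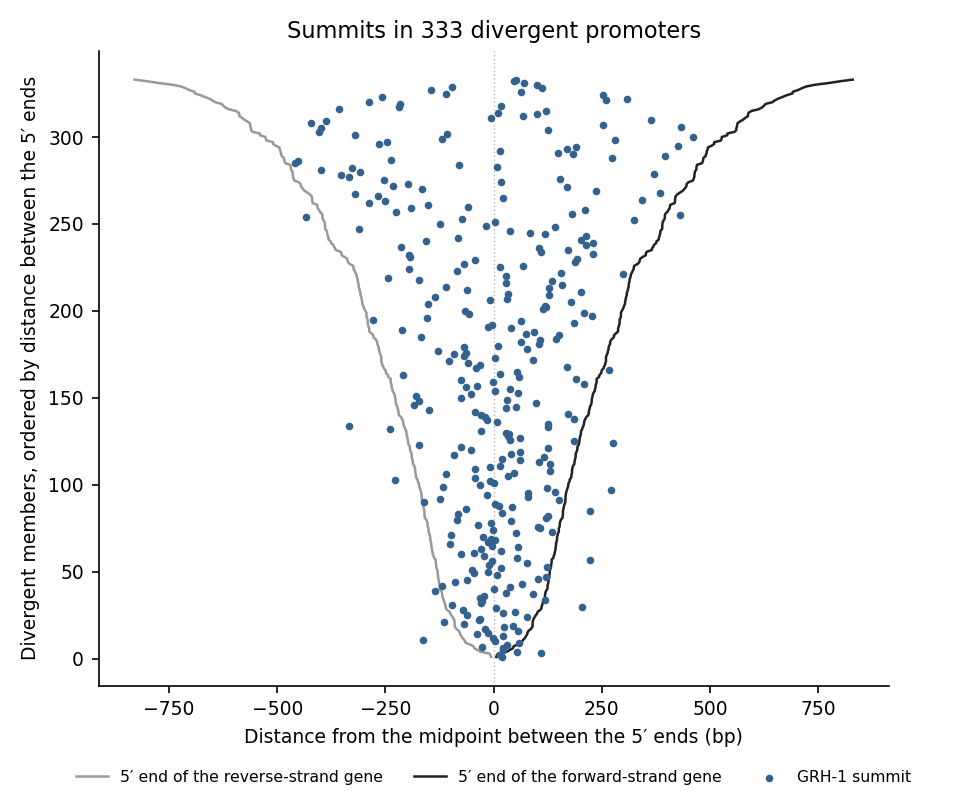
Summit positions in the 333 divergent members, with the distance from the midpoint between the 5′ ends in bp on the x axis and the members ordered by the distance between the ends on the y axis. Lines mark the 5′ ends of both genes; 314 summits lie between the lines, at a median of 89.5 bp from the midpoint.

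Membership depends on where the window stops. Just inside it, the summit of mif-3 / F13G3.10 was 995 bp upstream of mif-3 with a signal value of 267. The summits of K01A2.9 / far-7 (994 bp, 103) and T10E9.8 / T10E9.2 (988 bp, 153) were the next. Just outside it, and so counted as single-gene summits, were those 1001 bp upstream of maa-1 (81.4), 1002 bp upstream of Y71H2AM.20 (86.1) and 1003 bp upstream of cls-2 (423). High and low peaks stood on both sides of the limit.

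Shared summits were higher peaks and were found in both replicates more often. Their median signal value, a score deposited for each peak on a scale that is not stated, was 173 (quartiles 112 and 294), against 132 (91.8 and 236) for single-gene promoter summits and 113 for summits outside promoter windows. Of the members, 138 (35.7%) were among the highest 25% of the pooled list, and the share was 26.8% for single-gene summits. A peak of both replicates' own lists overlapped 249 members (64.3%, 59.4 to 69.0), where the share over all pooled summits was 50.2%. For single-gene summits it was 512 of 950 (53.9%), a difference of 10.4 percentage points (95% Newcombe interval 4.63 to 16.05). The difference was present in each list, with 84.5% against 70.9% in replicate 1 and 69.3% against 61.2% in replicate 2. A peak of neither list overlapped 41 members (10.6%, 7.91 to 14.1), against 207 single-gene summits (21.8%) and 585 of all summits (23.7%). The pooled list is made from both replicates and is not independent of theirs. The conservative pooled list, where 85.1% of all summits were found, held 357 members (92.2%). Within 150 bp of a 5′ end the median value was 164 for members and 118 for single-gene summits, and above 150 and up to 300 bp it was 186 and 149, so the difference in height was present at both distances. Among the highest 1235 peaks the replicate overlap was 91.0% for members and 89.4% for single-gene summits, and the interval of the difference of 1.59 points (-3.19 to 5.78) included 0.

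Each replicate's ranked list was also searched for a summit within 100 bp of the member, which gives a value per replicate. Such a summit was found for 379 members in replicate 1 (range 11.0 to 1273, median 100.4) and for 373 in replicate 2 (11.5 to 1024, median 77.8). Over the 369 members with both values, the Spearman correlation was 0.877 and the Pearson correlation of log2 values 0.898. These describe agreement across summits of 2 libraries, and summits are not replicates. Replicate 1 had the higher value for 307 of the 369, with a median ratio of 1.29, close to that over all summits (1.26). The values belong to separate lists whose scale and depth are unknown, so the ratio is no measure of binding.

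**Figure D4:**
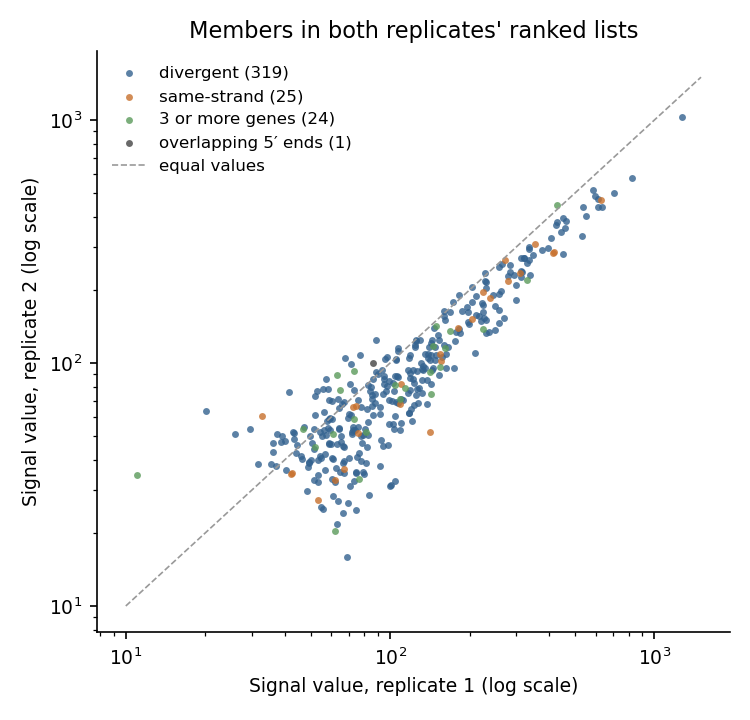
Signal values of 369 members in the ranked lists of replicate 1 (x axis) and replicate 2 (y axis), both on log scales, coloured by class. The dashed line marks equal values. The points form 1 band along it, with 307 of 369 below it.

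The highest shared summits stood at genes with widely differing roles. The highest of all, rank 4 in the pooled list, lay at chrV:13380131-13380583 between ifbp-1, named for a protein that binds intermediate filaments, and cpz-2, which encodes a predicted cysteine protease of the cathepsin Z type. Its pooled signal value was 2283, with 1273 in replicate 1 and 1024 in replicate 2, and it ranked 4 in each replicate's list. The summit was 130 bp from the 5′ end of ifbp-1 and 797 bp from that of cpz-2. It was the only one of the 10 highest divergent members to hold AACCGGTT. The others had pooled values from 953 to 1400. Next came rpl-20 / Y17G9B.5 (chrIV:4749933-4750215), with 1400 in the pool, 824 in replicate 1 and 575 in replicate 2. The pair rpl-7A / set-21 (chrIV:4390512-4390799) had 1192, 705 and 499 in the same order. Both lie next to genes for proteins of the large ribosomal subunit, and set-21 encodes a protein with a SET domain.

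Several of the remaining members of that group of 10 lay beside genes for protein folding and general metabolism. The chaperonin subunit gene cct-8, with Y55F3AR.2, had a pooled value of 1086 and values of 596 and 485 in replicates 1 and 2. Its 5′ end was 439 bp from the summit, against 182 bp for Y55F3AR.2. The mitochondrial chaperonin gene hsp-60, with Y22D7AL.10, had 1041, 609 and 437.5, and its 5′ end was 598 bp away, against 215 bp for Y22D7AL.10. The nucleoside diphosphate kinase gene ndk-1, with F25H2.6, had 1082, 614 and 472, and its 5′ end was the nearer one, at 55 bp against 398 bp. Replicate 1 was the higher in all of these, and the order differed between lists, since cct-8, ndk-1 and hsp-60 ranked 30, 31 and 35 in the pool and 36, 32 and 33 in replicate 1. Further members were K01G5.10 / tasp-1 (1104, 584 and 513), where tasp-1 encodes a threonine aspartase, and nhl-2 / tag-340 (1079, 633 and 438), where nhl-2 encodes an NHL-domain protein that acts with microRNAs. The last were drr-2 / set-16 (975, 537 and 440), where set-16 encodes a histone methyltransferase, and rpl-15 / K11H12.8 (953, 550 and 402). All 10 summits lay between protein-coding genes, at 55 to 600 bp from the nearer 5′ end.

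Same-strand members were few and took different forms. In 15 of the 28 the annotated genes overlapped, and in some of these a very short gene lies inside its longer partner, as named below. In the other 13 the annotated genes followed each other with a gap of 39 to 545 bp and a median of 114 bp. The summit lay upstream of both genes in 22 cases and between the 5′ ends in 6, and 8 summits were inside the upstream gene. Whether these pairs are operons was not tested, since no operon annotation was used. Their median signal value was 194 (quartiles 95.5 and 438), and 18 of 28 (64.3%, 45.8 to 79.3) overlapped a peak of both replicates, against 64.0% of the divergent members. The difference of 0.32 points had a Newcombe interval of -18.8 to 16.2, too wide to tell the classes apart.

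The highest same-strand member lay upstream of sec-61.G, which encodes the gamma subunit of the Sec61 protein channel of the endoplasmic reticulum, and of F32D8.13, which follows it after 114 bp. Its pooled value was 1099, with 630 in replicate 1 and 470 in replicate 2 (chrV:10897247-10897511), and the summit was 233 bp upstream of sec-61.G. The pair pqn-51 / K11D12.14 (725, 417 and 286) has 5′ ends only 29 bp apart, and K11D12.14 is annotated inside pqn-51, at chrV:5049636-5049686. The pair ddp-1 / ttc-7 (705, 415 and 284) begins with ddp-1, a homologue of a small chaperone of mitochondrial import. Then came egl-30 / C53H9.4 (664, 354 and 308), where egl-30 encodes a G protein alpha subunit of the q class. There C53H9.4 is annotated inside egl-30, at chrI:1835780-1835872. The next was rpb-11 / W01G7.4 (551, 272 and 266), where rpb-11 encodes a subunit of RNA polymerase II. In these 5 the summit was upstream of both genes, nearest to the first. The sixth, F57A8.1 / T06E8.8 (536, 310 and 236), had its summit in an intron of F57A8.1, and T06E8.8 is annotated inside F57A8.1, at chrV:10043746-10043787. Replicate 1 was the higher in all 6.

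The pair with overlapping 5′ ends was Y54E10BR.2 / rpb-7, which are transcribed away from each other and whose ends lie 3 bp past each other. Its summit was 8 bp upstream of Y54E10BR.2 and 11 bp inside rpb-7, and its values were 178 in the pool, 85.9 in replicate 1 and 99.9 in replicate 2. Of the 25 members with more genes, 24 had genes on both strands, so that most were a divergent pair with a further gene in reach. The only one with 4 genes, Y62E10A.20 / Y62E10A.23 / mdt-9 / lsm-3, had values of 98.6, 52.2 and 45.2. The highest with 3 genes was his-67 / his-68 / alg-5 (870, 428 and 445), at a pair of histone genes and alg-5, which encodes an Argonaute protein. The next was abcf-2 / T27E9.2 / ant-1.1 (536, 329 and 220), where ant-1.1 encodes a mitochondrial ADP/ATP carrier. Histone genes have near-identical copies in the genome, so reads there could match several copies, and how such reads were placed is not known here.

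The Grainyhead palindrome was rare at shared promoters. AACCGGTT was present within 100 bp of the summit in 3 of 387 members (0.775%, 0.264 to 2.25), against 3.81% of all pooled summits and 36 of 950 single-gene promoter summits (3.79%, 2.75 to 5.20). The difference was -3.01 percentage points (Newcombe interval -4.52 to -1.21). The members' share was the same as that of windows of equal length 500 bp to either side of them, 6 of 774 (0.775%, 0.356 to 1.68). Among 1 window per gene for all 19973 protein-coding genes, centred 100 bp before the outermost 5′ end, 0.320% held it. The variant AACTGGTT or AACCAGTT without the palindrome was present in 6 members (1.55%), against 4.74% of all summits and 5.05% of single-gene summits, a difference of -3.50 points (-5.29 to -1.34). Counted with or without the palindrome, the variant was in 0.775% of the flanks and 0.871% of all promoters. The core ACCGGT, within the palindrome or outside it, was in 9 members (2.33%), in 22 of the 774 flanks (2.84%) and in 1.51% of all promoters. With this core included, 15 members (3.88%) held a Grainyhead-type site, against 11.7% of all summits and 11.4% of single-gene summits (difference -7.49, -10.1 to -4.44). Among the highest 25% of peaks the shares were 5 of 138 members and 46 of 255 single-gene summits (3.62% and 18.0%, difference -14.4, -20.0 to -8.18), so the gap was not limited to low peaks. Without windows of ribosomal protein genes, a restriction chosen after seeing the data, the difference for the palindrome was -2.99 (-4.53 to -1.06). Restricted in the same way to summits within 150 bp of a 5′ end it was -1.24 (-3.94 to 1.80) and no longer left out 0. Above 150 and up to 300 bp it was -3.98 (-7.18 to -0.611). For any Grainyhead-type site the difference within 150 bp was -6.59 (-11.3 to -1.63), with 10 of 206 members and 34 of 297 single-gene summits.

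The 3 members with the palindrome differed widely in height, and so did the distance of the site from the summit. At ifbp-1 / cpz-2 the site began 8 bp from the summit. At K01A2.9 / far-7, where far-7 encodes a fatty acid and retinol binding protein, it began 10 bp to the other side of the summit. That member had only 103 in the pool, 57.3 in replicate 1 and 50.3 in replicate 2, and it also held GATTTACG. At C47E8.11 / gasr-8 it began 57 bp away from the summit, which lay in a coding exon. The values there were 96.5 in the pool and 69.4 in replicate 1, with no matching summit in replicate 2's ranked list. The highest members with the variant were ndk-1 / F25H2.6 (1082) and F57A8.1 / T06E8.8 (536). The third was grl-11 / ced-11, at 177 in the pool, 94.6 in replicate 1 and 81.6 in replicate 2, where grl-11 encodes a ground-like protein related to hedgehog.

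The other sequences searched were also less frequent at members than at single-gene summits, although above their flanks. AGACGCAG and GAGAGA were chosen with earlier results of these data known, in which AGACGCAG had ranked first at summits. Their excess over the flanks and their differences are therefore a description and not a test. AGACGCAG occurred in 33 members (8.53%, 6.14 to 11.7), against 12.1% of all summits, 14.1% of single-gene summits (difference -5.58, -8.94 to -1.76), 0.904% of the flanks and 2.78% of all promoters. The repeat GAGAGA occurred in 101 (26.1%, 22.0 to 30.7), against 35.2% of all summits, 35.1% of single-gene summits (difference -8.95, -14.1 to -3.48), 10.6% of the flanks and 16.3% of all promoters. The E-box CACGTG occurred in 19 (4.91%, 3.17 to 7.54), against 11.1%, 11.4% (difference -6.46, -9.25 to -3.23), 3.88% and 4.22% in the same order, and its intervals in members and flanks overlapped. Matches were counted on both strands, AGACGCAG and GAGAGA can overlap each other, and 17 members held both. The intervals were not adjusted for the 6 sequences compared, and among the highest 25% of peaks those for AGACGCAG (-6.27, -12.5 to 0.943), GAGAGA (-3.92, -13.4 to 6.09) and CACGTG (-4.52, -10.1 to 2.01) included 0. A match describes the letters near a summit and is not evidence of binding by any factor. The highest members with GAGAGA were K01G5.10 / tasp-1, F32D8.13 / sec-61.G and nhl-2 / tag-340. With AGACGCAG they were F32D8.13 / sec-61.G, drr-2 / set-16 and his-67 / his-68 / alg-5. With CACGTG they were ndk-1 / F25H2.6, gpap-1 / scpr-1 (845) and pdi-3 / ubql-1 (676), where pdi-3 encodes a protein disulphide isomerase.

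A further set of sequences was more frequent at members than elsewhere. They were picked after the members had been seen, so their shares are a description with no test. GCGAGACC was within 100 bp of 41 members (10.6%), against 3.44% of all summits, 3.05% of single-gene summits, 0.646% of the flanks and 0.886% of all promoters. GATTTACG was at 37 members (9.56%), against 2.91% of all summits, 2.53% of single-gene summits, 0.517% of the flanks and 1.25% of all promoters. Neither was frequent at the midpoints of 2155 divergent pairs without a summit, at 2.09% and 1.72%, and 12 members held both. GCGCCAGC and TGCGCCAG, shifted by 1 base from each other and both present in 24 members, were at 35 (9.04%) and 32 (8.27%), against 3.56% and 2.63% of all summits and 0.386% and 0.355% of all promoters. GCGCGTTT was at 37 (9.56%), against 4.49% of all summits and 1.09% of all promoters. One or more of these 5 were present in 124 members (32.0%) and in 131 single-gene summits (13.8%). The A-rich AAAATAAA was at 89 members (22.997%), against 9.19% of all summits, 9.58% of single-gene summits and 17.1% of all promoters. The GC content of the 201 bp around the summit was 41.8% ± 6.56 (SD, 387 summits) in members and 43.2% ± 7.30 (SD, 950 summits) in single-gene promoters.

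These sequences differed in how close to the summit they lay. Of the sites in members, 31 of 42 for GCGCCAGC (73.8%) and 27 of 42 for GCGAGACC (64.3%) were within 25 bp of the summit, at a median distance of 16.5 bp for both. For AGACGCAG it was 17 of 35 (48.6%), for GAGAGA 41 of 151 (27.2%) and for GATTTACG 9 of 39 (23.1%, median 42.5 bp). For AAAATAAA it was 8 of 113 (7.08%, median 62.5 bp), so the A-rich sequence lay to the side of the summits rather than at them.

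Of the 12 gene lists, all made from gene symbols, ribosomal protein genes had the largest share with a shared summit. Their products form the small (rps) and large (rpl) subunits of the ribosome and the acidic stalk (rla). Of 81 such genes, 38 (46.9%, 36.4 to 57.7) had a member summit in their window, where the share over all protein-coding genes was 3.90%. A further 13 had a single-gene summit only and 30 had no promoter summit, against 850 and 18344 of all 19973 protein-coding genes. The 38 genes shared 35 summits, of which 30 were divergent, 3 same-strand and 2 had 3 genes. In 3 of them both partners or neighbours were ribosomal protein genes, namely rps-10 / rpl-24.1, rpl-39 / rps-30 / C26F1.3 and rps-14 / rpl-36 / ndab-2. Signal values at the 35 summits ran from 91.0 to 1400 with a median of 223, against 167 for the other 352 members. A peak of both replicates overlapped 28 of the 35 (80.0%). None of the 35 held a Grainyhead-type site, which by the Wilson interval allows a share of up to 9.89%, and 3 held GAGAGA. Over all summits the shares were 11.7% and 35.2%. Of the 14 single-gene summits at ribosomal protein genes, 0 held a Grainyhead-type site and 6 held GAGAGA.

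The ribosomal protein gene had the nearest 5′ end in 14 of the 38 cases (36.8%, 23.4 to 52.7), an interval that includes the 48.5% over all links between a member and a gene. At rpl-20 the summit was 288 bp away, against 174 bp for Y17G9B.5, and at rps-19 it was 275 bp away, against 170 bp for hsr-9. The reverse held at rpl-15, 347 bp away against 467 bp for K11H12.8, and at rpl-7A, 66 bp away against 188 bp for set-21. Assigning each summit to its nearest gene only would leave out 24 of the 38. The other highest members of this list were rps-19 / hsr-9 (826 in the pool, 458 in replicate 1 and 361 in replicate 2), ska-3 / rps-12 (795, 428 and 380) and rpl-12 / lin-54 (785, 444 and 347). The lowest were sna-3 / rps-3 (92.6, 42.9 and 52.0) and rpl-9 / lpd-7 (91.0, 29.6 and 53.5). Replicate 1 was the higher for 30 of the 35.

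**Figure D5:**
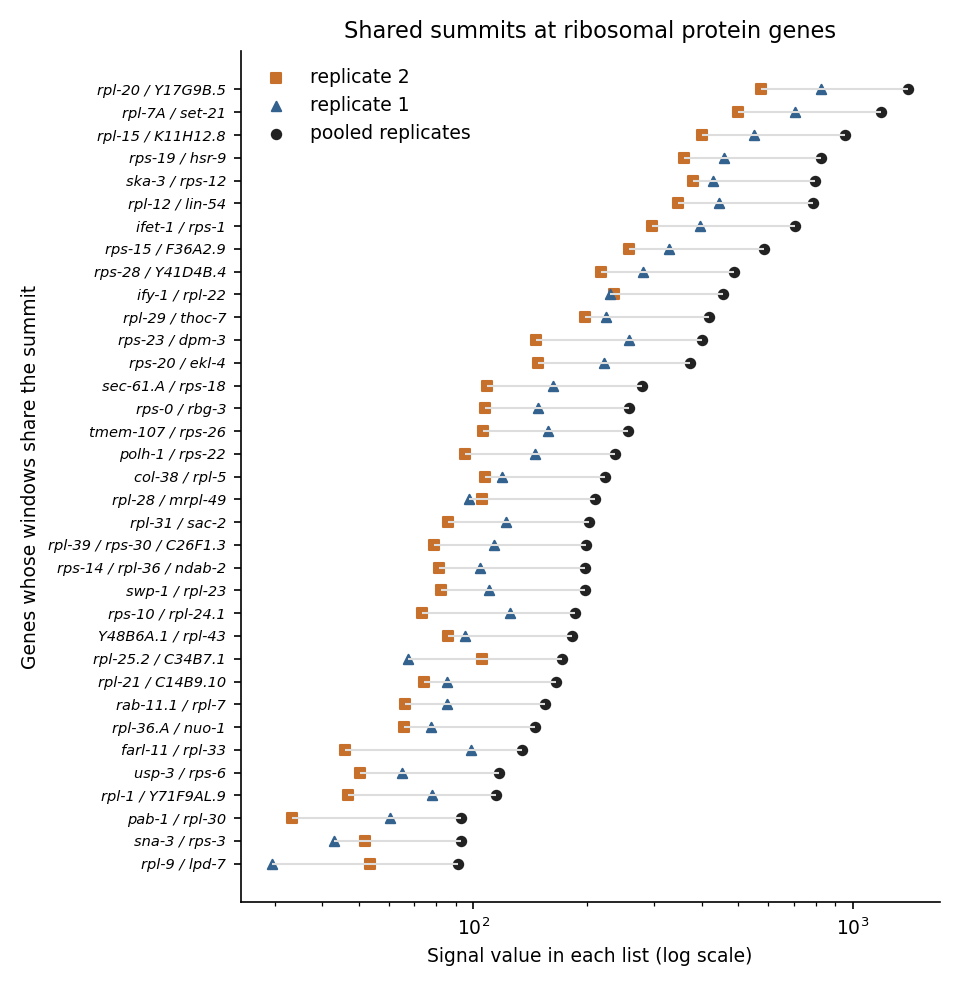
Signal values of the 35 members with a ribosomal protein gene, on a log scale, in the pooled list (circles) and in the ranked lists of replicate 1 (triangles) and replicate 2 (squares). Pooled values run from 91.0 to 1400, and replicate 1 lies to the right of replicate 2 at 30 of the 35.

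Other lists of broadly used genes had lower shares, which were not tested against that of the ribosomal list, and the interval of the splicing list overlapped it. Of 59 chaperone genes, 14 (23.7%, 14.7 to 36.0) had a member summit, among them cct-8, hsp-60 and hsp-90 (with C47E8.4, 856 in the pool, 530 in replicate 1 and 334 in replicate 2). The chaperone gene had the nearest 5′ end in 3 of these 14 cases. Of 37 splicing genes 10 had one (27.0%, 15.4 to 43.0), led by prp-19 (292), which encodes a ubiquitin ligase of the spliceosome, and by the divergent pair rsp-2 / rsp-1 (265), which both encode SR splicing factors. Of 73 histone genes 15 had one (20.5%, 12.9 to 31.2). After his-67 and his-68 came htz-1, the gene of the histone variant H2A.Z, with wapl-1 (554, 312 and 239), and the pair his-6 / his-5 (356, 173 and 178). The proteasome list had 5 of 33 genes (15.2%, 6.65 to 30.9), led by rpn-3, which shares its summit with the chaperone gene hsp-110 (423, 249 and 172). The vacuolar ATPase had 3 of 20 (15.0%, 5.24 to 36.0), led by vha-8 (329). These intervals lie above the 3.90% of all genes. How many genes of each list have a neighbour near enough to share a window was not tested.

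Translation factors and tRNA synthetases had 6 of 71 genes (8.45%, 3.93 to 17.2), all but 1 of them with the nearest 5′ end. They were led by iff-2, the gene of translation factor eIF5A (783, 422 and 369), by eef-2, the gene of elongation factor 2, with clsp-1 (735, 450 and 280), and by eef-1G with ctf-4 (530, 313 and 226). The mitochondrial ribosome had 6 of 70 (8.57%, 3.99 to 17.5), led by mrps-7 (364). Its mrpl-49 shares a summit (209, 97.2 and 106) with rpl-28, so that genes of both kinds of ribosome meet there.

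Regulatory and epidermal lists were near or below the share of all genes. Nuclear receptors had 3 of 269 (1.12%, 0.380 to 3.23), namely nhr-47, which shares a summit with dnj-19 (419, 203 and 206), nhr-68 (285) and nhr-142 (185). Homeobox genes had 1 of 63 (1.59%, 0.281 to 8.46), ceh-38 (227). Cuticle collagens, the structural proteins that the epidermis secretes, had 6 of 156 (3.85%, 1.77 to 8.14). The highest of these, col-38 (223 in the pool, 119 in replicate 1 and 108 in replicate 2), shares its summit with rpl-5, and col-117 / col-3 and col-159 / col-160 are pairs of collagen genes with 88.6 and 80.1. None of 26 genes for molting and epidermal regulators or junctions had a member summit, which allows a share of up to 12.9%. A single-gene summit was present at 11 of them, where over all 19973 protein-coding genes 850 had a single-gene summit only.

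The X chromosome had few shared summits. There, 15 of 219 promoter summits (6.85%, 4.19 to 11.0) were members, whereas on the autosomes the share ran from 26.8% to 38.5%. Windows of several genes also made up less of the promoter bases on X, 4.50% against 10.6% to 12.3%. Within them the density was 86.2 summits per Mb on X and 123 to 192 per Mb on the autosomes. In single-gene windows it was 55.2 per Mb on X, above the 29.9 to 45.6 per Mb of the autosomes. Leaving X out, the difference in the palindrome between members and single-gene summits was -2.95 points (-4.65 to -1.03).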

How the data were processed

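Peaks were deposited per replicate and for the pooled replicates on the build ce11, per the labels. Each deposited peak carries a signal value, a score made by the authors that belongs to its own list, so a difference in level between lists describes the lists and is no measure of binding. Aligner, peak caller and number of reads are unknown here.

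The pooled thresholded list gave the summits, and thresholded (1787 and 1487 peaks) and ranked (99502 and 85197) lists of the replicates gave overlap (1 bp) and values. The 29314 5′ ends of 19973 protein-coding genes came from Ensembl release 115. Motifs were searched on both strands within 100 bp of the summit. Shares carry Wilson, differences Newcombe and densities exact Poisson intervals at 95%, which cover counting error only. SciPy 1.17.1, pandas 2.3.3, numpy 2.4.6 and, for figures, matplotlib 3.10.9 were run under Python 3.11.15, and the window rule, pair classes, intervals and motif search were tested on simulated data. Members, motifs and gene lists were chosen with earlier results of these data known.

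Named members were the highest by signal value of each class (10 divergent, 6 same-strand), motif (3) and gene list (3), those with the most genes, and the divergent pairs with the closest and farthest ends. Examples outside this rule (rps-19, rps-12, rpl-12, the lowest ribosomal members and col-159 / col-160) were chosen after their values were seen. Other windows, motif distances, the conservative list, the highest 1235 peaks, merged neighbouring summits and each replicate alone were tried as alternatives.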

Additional observations from a re-analysis of the deposited data

How the results depend on the processing

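Of 73 alternative values, 58 kept their direction and call, 9 moved, 6 no longer left out 0 and 0 reversed. The share of promoter summits in windows of several genes (28.9%) was 24.7% with windows of 500 bp upstream and 100 bp downstream, 38.4% with 2000 bp upstream, 33.8% in the highest 1235 peaks, and 32.2% to 32.3% with 1 replicate left out. The divergent share (92.0%) was 96.1% and 80.7% with those shorter and longer windows. The members' median signal value (173, against 132 for single-gene summits) was 236 in the highest 1235 peaks, against 227 for single-gene summits there. With the longer windows it was 148, against 127. The AGACGCAG difference (-5.58) was -4.26 (-8.15 to 0.407) with the shorter windows. The highest 1235 peaks gave a replicate-overlap difference of 1.59. The following alternatives were chosen after seeing the data. Within 150 bp of a 5′ end, the AACCGGTT difference was -1.24. Above 150 and up to 300 bp, the differences were -2.03 for AGACGCAG, -4.92 for GAGAGA and 7.35 for replicate overlap. Fewer summits enter each of these, and the cause was not tested. No paired analysis was possible because there was 1 group. With no read depth and no untagged strain, neither background at these promoters nor binding by other factors there was tested.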
